A study of Sus scrofa with 12 samples.

Results

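In left ventricular tissue of Ossabaw pigs, 5 genes were described: CLSTN3, ETV7, ZBP1, CMPK2 and ENSSSCG00000009240. They were picked from 35670 gene identifiers because their mean was more than 2.5-fold higher in saline-treated heart failure than in chow control hearts, with the mean of vector-treated hearts in between. Their differences between the groups are therefore given as a description. Calls, errors and intervals printed for these differences rest on the values that chose the genes and do not serve as tests of them. Of the 5 identifiers, 4 have a symbol in the names table used here, and ENSSSCG00000009240 is given by its identifier.

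Interferons are secreted proteins that bind receptors on neighbouring cells. The receptors activate JAK kinases and a transcription complex that contains IRF9, which switches on a large set of interferon-stimulated genes. The same set responds when cells sense viral or misplaced cellular nucleic acid, including DNA or RNA released from mitochondria. ETV7, ZBP1 and CMPK2 are known members of that set. ETV7 is an ETS family repressor that restrains part of the interferon response. ZBP1 senses nucleic acid in the left-handed Z form and can start necroptotic cell death through RIPK3. CMPK2 is a mitochondrial nucleotide kinase that makes precursors for DNA synthesis. CLSTN3 encodes calsyntenin-3, a cadherin-family membrane protein known from synapses and, as a separate transcript, from thermogenic fat cells.

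The animals were female wild-type Ossabaw pigs, a strain prone to obesity, in 3 groups of 4. Chow control animals received normal chow and, per the design text, neither aortic banding nor vector. Animals of both heart failure groups were fed a high-fat diet, begun at 2 months of age, and had aortic banding, which narrows the aorta and loads the left ventricle. Diet and banding therefore cannot be told apart. The HF saline group was then treated with saline. The HF KBD group received 8e12 vector genomes per kg of AAV9sc.KBD by intravenous infusion, a self-complementary adeno-associated virus that carries the kinase binding domain of AKAP6, an anchoring protein, as a peptide expressed selectively in cardiomyocytes. Tissue was taken 6 months after treatment. Each sample has its own numeric title, but the labels give no replicate numbers. The replicate numbers 1 to 4 used here therefore follow sample order, only name an animal and pair none across groups. Age at tissue collection is not given in the sources used here.

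The 12 libraries held between 7721638 and 12637958 expected counts, and all carry the same batch label. Levels are given as CPM, counts scaled to a common library size with TMM factors. Vector reads were present in the 4 HF KBD animals and were 0 in the other 8. They stood at 24.9, 42.8, 23.98 and 65.3 CPM in replicates 1 to 4, here scaled by library total without TMM factors. The cardiomyocyte transcripts TNNT2, MYH6, ACTC1 and MYL2 together took between 20856 and 30184 CPM in each animal, so the defining transcripts of heart muscle were present throughout. CPM compares animals within a gene and not genes with each other, because it is not corrected for transcript length. Tissue RNA cannot tell a change in the number of cells of a type from a change in RNA per cell.

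CLSTN3 (ENSSSCG00000000672; chromosome 5, 63572062 to 63612177 in Sscrofa11.1) was nearly undetected in chow control hearts. The 4 chow control animals had 1, 1, 1 and 3 counts in replicates 1 to 4, or 0.128, 0.0847, 0.0814 and 0.298 CPM. The HF saline animals had 22, 14, 45 and 15 counts, or 2.11, 1.26, 4.36 and 1.38 CPM. In the HF KBD animals the counts were 16, 12, 16 and 13, or 1.64, 1.24, 1.46 and 1.19 CPM. Every heart failure animal therefore lay above every chow control animal, and the groups given saline and vector overlapped. HF saline replicate 3 stood above all others. The ratio of HF saline to chow control summed counts, 96 against 6, was 15.7 after scaling for depth, with a 95% exact interval from 6.97 to 43.9 that covers counting error only. CLSTN3 passed the filter on low counts through the heart failure groups alone, since the filter asks for about 0.930 CPM in 4 animals.

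ETV7 (ENSSSCG00000001561; chromosome 7, 32087422 to 32109966) had 1.15, 1.19, 1.55 and 1.29 CPM in chow control replicates 1 to 4. In HF saline it had 4.02, 3.79, 8.53 and 7.33 CPM. In HF KBD it had 3.80, 3.52, 4.66 and 2.93 CPM. The chow control animals were close together, and all 8 heart failure animals lay above them. HF saline replicates 3 and 4 stood above all vector-treated animals, whereas replicates 1 and 2 lay within their range. The group means were 1.29 CPM ± 0.179 (SD, n = 4), 5.92 CPM ± 2.38 (SD, n = 4) and 3.73 CPM ± 0.719 (SD, n = 4) for chow control, HF saline and HF KBD.

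ZBP1 (ENSSSCG00000007508; chromosome 17, 57975982 to 57986117) had 11.998, 6.35, 5.05 and 4.96 CPM in chow control replicates 1 to 4. HF saline animals had 18.3, 18.7, 25.6 and 19.1 CPM. HF KBD animals had 14.2, 11.6, 12.1 and 13.6 CPM. ZBP1 was the single gene of the 5 in which no vector-treated animal reached the lowest HF saline animal. It was also the single gene in which a chow control animal, replicate 1, lay within the HF KBD range. Means were 7.09 CPM ± 3.33 (SD, n = 4), 20.4 CPM ± 3.47 (SD, n = 4) and 12.9 CPM ± 1.22 (SD, n = 4) in the same order.

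CMPK2 (ENSSSCG00000008647; chromosome 3, 128903395 to 128917873) had 10.3, 5.25, 7.57 and 4.36 CPM in chow control replicates 1 to 4. Levels in HF saline were 16.5, 13.6, 22.5 and 17.5 CPM. Levels in HF KBD were 17.5, 13.5, 10.9 and 13.4 CPM. All heart failure animals lay above all chow control animals, though HF KBD replicate 3 and chow control replicate 1 were close. HF KBD replicate 1 was as high as the HF saline mean of 17.5 CPM ± 3.70 (SD, n = 4). The HF KBD mean was 13.8 CPM ± 2.73 (SD, n = 4), and that of the chow control animals 6.88 CPM ± 2.67 (SD, n = 4).

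ENSSSCG00000009240 had 4.21, 2.79, 3.34 and 2.18 CPM in chow control replicates 1 to 4. HF saline animals had 6.32, 7.22, 15.2 and 16.04 CPM. HF KBD animals had 11.3, 7.25, 9.13 and 6.68 CPM. The HF saline group was split, with replicates 1 and 2 within or just below the HF KBD range and replicates 3 and 4 above it. The means were 3.13 CPM ± 0.861 (SD, n = 4), 11.2 CPM ± 5.14 (SD, n = 4) and 8.59 CPM ± 2.09 (SD, n = 4). The deposited expected counts of all 5 genes were whole numbers in every animal.

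**Figure D1:**
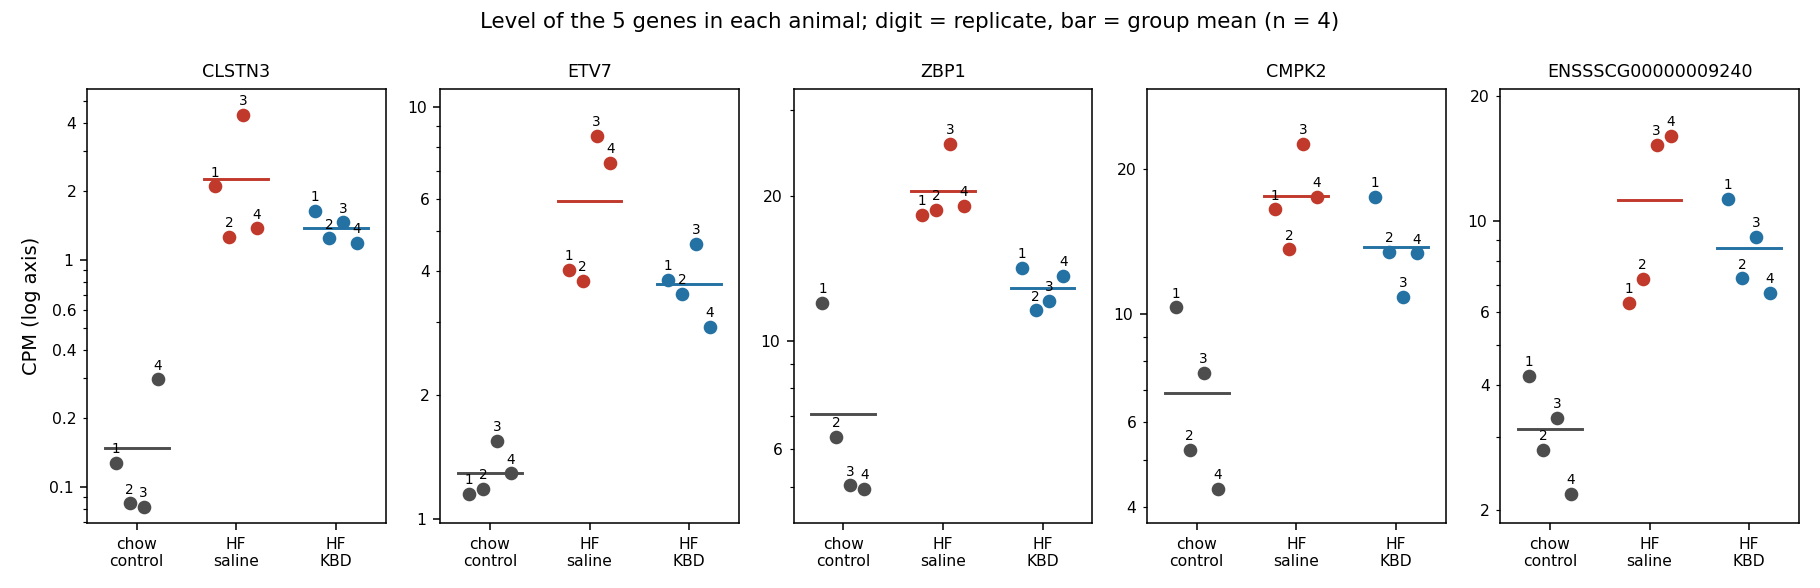
CPM on a log axis in each of 12 animals, with 1 panel per gene; points are animals marked by replicate number and bars are group means of 4. Chow control animals are lowest in each panel except for ZBP1, where chow control replicate 1 (11.998 CPM) lies within the HF KBD range.

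As ratios of group means, HF saline over chow control was 15.4 for CLSTN3, 4.58 for ETV7, 3.58 for ENSSSCG00000009240, 2.88 for ZBP1 and 2.55 for CMPK2. HF KBD over chow control was 9.37, 2.88, 2.74, 1.82 and 2.00 in the same order. The HF KBD mean lay from 43.6% (ZBP1) to 67.7% (ENSSSCG00000009240) of the way from the chow control to the HF saline mean. CMPK2 sat closest to the 2.5-fold limit. Of genes with at least 5 CPM in HF saline and an intermediate HF KBD mean, PLCD4, at 2.48-fold, was just outside it. In all, 90 of the 13476 tested genes met both conditions, so the 5 are a choice among them and not the full set.

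In the model of all genes, all 5 were called in HF saline vs chow control, where 0.26% of tested genes were called at an adjusted p under 0.05 (edgeR). Those were 35 genes, a count that ran from 3 (without chow control replicate 2 or HF saline replicate 4) to 72 (without HF saline replicate 1). The rule used this contrast, so the count carries no weight of its own. Of the 5, 0 were called in HF KBD vs chow control, where 0.0519% of tested genes were called, although all 5 had an unadjusted p under 0.05 there (12.5% of tested genes). HF KBD animals lay above all chow control animals for 4 of the 5 (3.78% of tested genes). In HF KBD vs HF saline, 0 were called, as were 0% of tested genes, and 2 of the 5, ETV7 and ZBP1, had an unadjusted p under 0.05 and a lower level (1.83% of tested genes). For 1 of the 5, ZBP1, all HF KBD animals lay below all HF saline animals (1.31% of tested genes). The rule used these contrasts too. The fitted log2 fold changes in that comparison were -0.71 ± 0.416 (SE) for CLSTN3, -0.66 ± 0.275 (SE) for ETV7 and -0.66 ± 0.229 (SE) for ZBP1. They were -0.35 ± 0.236 (SE) for CMPK2 and -0.38 ± 0.303 (SE) for ENSSSCG00000009240. The 5 calls in HF saline vs chow control depended on the animals. They became 0 without chow control replicate 2, 1 without chow control replicate 3 or HF saline replicate 4, and 2 without chow control replicate 4 or HF saline replicate 3. Without any single HF KBD replicate, 3 of the 5 were called.

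The rest of the interferon pathway was described from a list of textbook genes written down after the names of the 5 were known, so it is not independent of their choice. Of the 5 ligand genes listed, 4 were in the names table, and no interferon alpha gene was listed. These 4, IFNB1, IFNG, IFNE and IFNK, had 0 counts in all 12 animals, at depths that would show levels down to between 0.237 and 0.389 CPM (3 counts). Of 10 receptor and signalling genes, 0 passed the test in HF saline vs chow control (edgeR, adjusted p under 0.05). Of all tested genes, 0.26% passed. At an unadjusted p under 0.05, 3 of the 10 were higher, where 5.71% of all tested genes were higher. IRF9, a part of the transcription complex that acts on interferon-stimulated genes, was among these 3. IRF9 had 28.6, 26.7, 36.5 and 22.5 CPM in chow control replicates 1 to 4 and 39.7, 34.1, 74.2 and 58.7 CPM in HF saline. It had 30.6, 26.7, 24.4 and 24.99 CPM in HF KBD. HF KBD animals thus lay within the chow control range, below all HF saline animals. IRF9 was the 1 gene of the 10 with all HF KBD animals below all HF saline animals (1.31% of all tested genes). For 1 other of the 10, all HF KBD animals lay above all HF saline animals. The log2 fold change of IRF9 in HF KBD vs HF saline was -0.95 ± 0.222 (SE, with an edgeR unadjusted p of 0.000917, adjusted p = 0.9995). The receptor genes IFNAR1, IFNAR2, IFNGR1 and IFNGR2 had log2 fold changes between -0.25 and 0.05 in HF saline vs chow control, with 0 called.

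Among 11 sensors and adaptors of the nucleic acid response, 1 passed the test in HF saline vs chow control, where 0.26% of all tested genes passed. At an unadjusted p under 0.05 (edgeR), 4 of the 11 were higher, where 5.71% of all tested genes were higher. The gene that passed was DHX58, a regulator of RNA sensing. Its mean was 4.70 CPM ± 1.32 (SD, n = 4) for chow control, 14.02 CPM ± 5.82 (SD, n = 4) for HF saline and 8.29 CPM ± 2.13 (SD, n = 4) for HF KBD. Its log2 fold change was 1.59 ± 0.298 (SE, with an edgeR adjusted p of 0.0498). RIGI, the RNA sensor beside which DHX58 acts, had a log2 fold change of 1.31 ± 0.246 (SE, with an edgeR adjusted p of 0.0518). The DNA sensor gene CGAS was near the detection limit, with means of 0.533, 1.10 and 0.892 CPM in chow control, HF saline and HF KBD.

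Of 45 listed interferon-stimulated genes other than the 5, 43 were tested. In HF saline vs chow control 7 rose and 0 fell (edgeR, adjusted p under 0.05), where 0.171% of all tested genes rose. At an unadjusted p under 0.05, 32 were higher and 1 was lower, where 5.71% of all tested genes were higher and 6.1% lower. The fitted level was higher in HF saline for 40 of the 43, and the median log2 fold change was 0.73, where the median of all tested genes was -0.00240. The groups did not overlap, with HF saline higher, for 20 of the 43 and for 3.48% of all tested genes. Leaving out 1 animal moved the count that rose. It was 2 without chow control replicate 3 or HF saline replicate 4, 3 without chow control replicate 2 or 4 or HF saline replicate 3, and 4 without any single HF KBD replicate. The median log2 fold change was 0.68 without HF saline replicate 3 and at least that in the others.

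The 7 that rose were HERC5, IFIT5, MX1, UBA7, PARP12, IFIT3 and EPSTI1. HERC5 and UBA7 are the ligase and the activating enzyme that attach the ubiquitin-like protein ISG15 to other proteins. HERC5 had a log2 fold change of 1.69 ± 0.172 (SE, with an adjusted p of 0.00176), and UBA7 of 1.48 ± 0.224 (SE, with an edgeR adjusted p of 0.0224). MX1, a GTPase that blocks virus particles, had 21.7, 21.8, 19.4 and 9.32 CPM in chow control replicates 1 to 4. It had 60.2, 40.3, 79.7 and 58.2 CPM in HF saline and 41.2, 37.3, 45.5 and 46.5 CPM in HF KBD. Its log2 fold change in HF saline vs chow control was 1.72 ± 0.249 (SE, with an edgeR adjusted p of 0.0224). The HF KBD animals lay above all chow control animals and overlapped HF saline, whose replicate 2 was below 3 of them. The log2 fold changes of the other 4, IFIT5, PARP12, IFIT3 and EPSTI1, were 0.81, 1.37, 1.07 and 1.74.

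RSAD2, which encodes the antiviral enzyme viperin, lies next to CMPK2 on chromosome 3 (128880853 to 128897809), with 5585 bases between the 2 genes in the RefSeq annotation. It had 25.8, 10.4, 11.2 and 5.06 CPM in chow control replicates 1 to 4, 63.6, 25.3, 35.5 and 38.8 CPM in HF saline and 24.6, 19.4, 32.9 and 24.8 CPM in HF KBD. Its log2 fold change was 1.66 ± 0.424 (SE, with an edgeR adjusted p of 0.157). Chow control replicate 1 was the highest of its group for RSAD2, as it was for CMPK2. HF saline replicate 1 was the highest of all animals for RSAD2, unlike CMPK2, whose highest animal was HF saline replicate 3. RSAD2 was singled out here for its position after the values were seen.

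Some listed genes did not follow the majority. CXCL10, a chemokine that draws T cells, had 6.89, 116.5, 15.4 and 104.5 CPM in chow control replicates 1 to 4 and between 9.57 and 36.3 CPM in HF saline. IRF1, a transcription factor induced most strongly by interferon gamma, had a log2 fold change of -1.39 ± 0.398 (SE, with an edgeR adjusted p of 0.194). Both were highest in chow control replicates 2 and 4. OASL had 0 counts in the 4 chow control animals and 20, 2, 68 and 22 counts in HF saline, at least 37.5-fold higher against a floor of 3 counts over the chow control group. Without HF saline replicate 3 the bound was 19.2-fold. Putting OASL at that bound left the median of the list at 0.73. CXCL10, IRF1 and OASL were named after their values were seen.

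**Figure D2:**
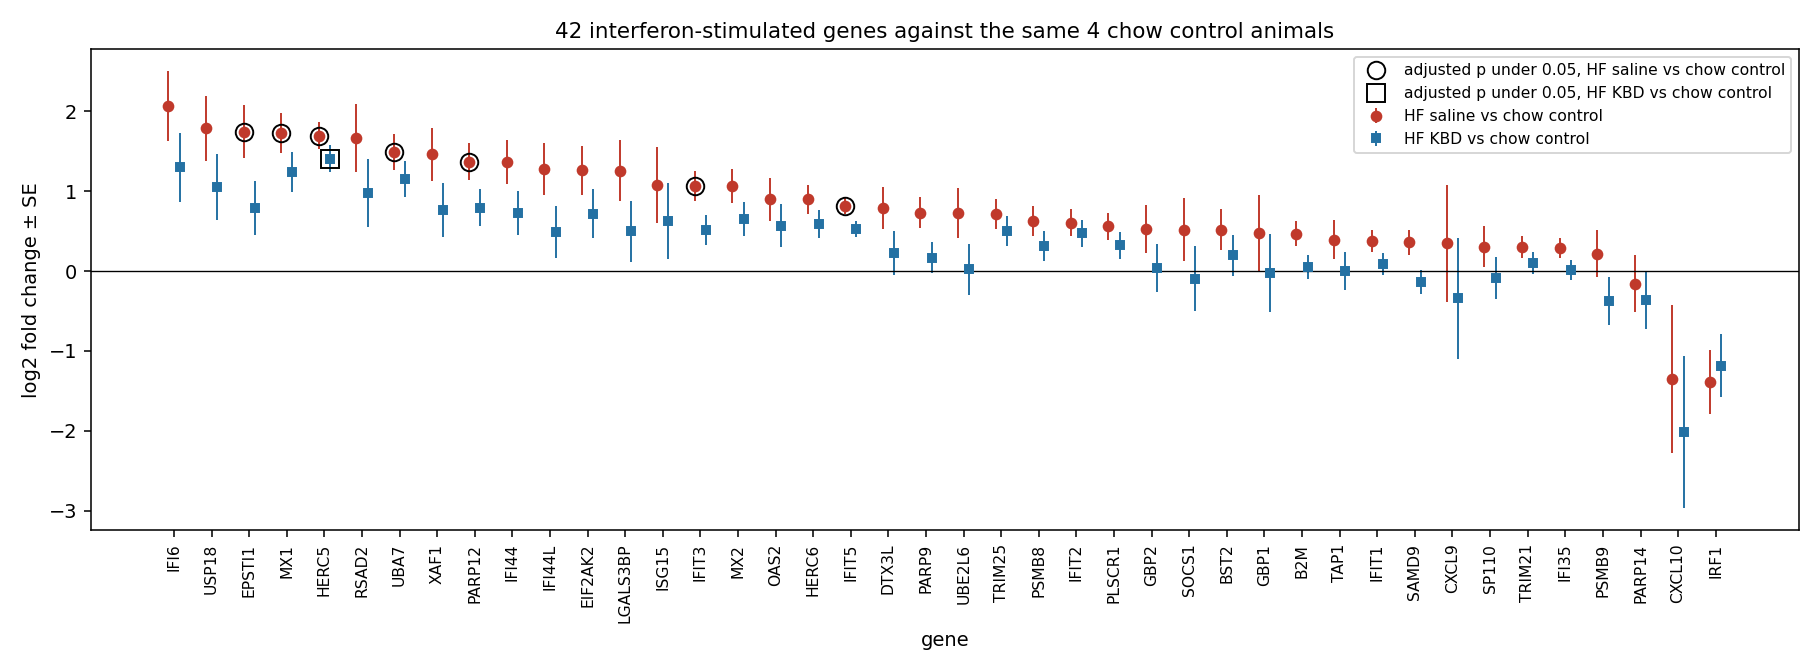
Fitted log2 fold change with its standard error for 42 listed interferon-stimulated genes (OASL left out), HF saline (circles) and HF KBD (squares) each against the same 4 chow control animals; outlined symbols passed an adjusted p under 0.05. IFI6 has the highest value in HF saline (2.06), and CXCL10 and IRF1 lie lowest in both.

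In HF KBD vs chow control, 1 of the 43, HERC5, rose and 0 fell, where 0.0297% of all tested genes rose. Its log2 fold change was 1.41 ± 0.172 (SE, with an edgeR adjusted p of 0.0164). The median log2 fold change of the list was 0.47, with 34 of 43 fitted levels higher, where 49.7% of all tested genes were higher. At an unadjusted p under 0.05 (edgeR), 17 of the 43 were higher and 1 was lower, where 12.5% of all tested genes differed in either direction. All HF KBD animals lay above all chow control animals for 12 of the 43 and for 3.78% of all tested genes. The same chow control animals entered this comparison and the one above. In HF KBD vs HF saline, 0 of the 43 passed the test (edgeR, and 0 with DESeq2), where 0% of all tested genes did, and the median log2 fold change was -0.49. At an unadjusted p under 0.05, 13 of the 43 were lower in HF KBD and 0 were higher, where 1.83% of all tested genes were lower. Without HF saline replicate 3 the count lower was 5 and the median was -0.33, without HF saline replicate 4 the count was 7, and without HF KBD replicate 2 or 4 it was 8. Without HF saline replicate 2 it was 21. Summed over the 45 listed genes, the level ran from 981 to 1236 CPM in chow control, from 1393 to 2250 CPM in HF saline and from 1170 to 1356 CPM in HF KBD.

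Genes that act with single members of the 5 were also on lists written after their names were known. In the ZBP1 cell death pathway RIPK1, RIPK3, MLKL, CASP8 and FADD had log2 fold changes between -0.09 and 0.23 in HF saline vs chow control, and 0 of 5 passed the test (0 also at an unadjusted p under 0.05). Of 11 tested genes of pyrimidine nucleotide supply, which share substrates with CMPK2, 0 passed, and the median log2 fold change was 0.04. The related CLSTN1 was level, at 121.6, 122.1 and 122.6 CPM in chow control, HF saline and HF KBD. Of 6 ETS family genes beside ETV7, 0 passed, with a median log2 fold change of 0.14.

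Spread around the group mean was not used to choose the 5 genes. The within-group SD of log2 CPM was 0.503 for CLSTN3, 0.494 for ENSSSCG00000009240, 0.389 for CMPK2, 0.378 for ETV7 and 0.369 for ZBP1. Against the 500 tested genes nearest in mean level, ZBP1, CMPK2 and ENSSSCG00000009240 varied more than 86.2%, 87.8% and 84.2% of them, ETV7 more than 46.4% and CLSTN3 more than 24.6%. CLSTN3 had only 1, 1, 1 and 3 counts in chow control. The part of depth, and of the prior count of 2 used for log2 CPM, in its spread was not tested. The coefficient of variation was lower in HF KBD than in HF saline for all 5 genes, as it was for 49.6% of all tested genes. It was 15.1% against 63.2% for CLSTN3, 19.3% against 40.2% for ETV7 and 9.45% against 17.0% for ZBP1. For CMPK2 it was 19.8% against 21.1%, and for ENSSSCG00000009240 24.3% against 45.9%. Without HF saline replicate 3 it was lower in HF KBD for 3 of the 5, the exceptions being ZBP1 (2.09% in HF saline) and CMPK2 (12.7%).

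HF saline replicate 3 was the highest of all 12 animals for CLSTN3, ETV7, ZBP1 and CMPK2 and second for ENSSSCG00000009240. Its log2 CPM exceeded the HF saline mean by 1.04, 0.60, 0.34, 0.38 and 0.56 in the order CLSTN3, ETV7, ZBP1, CMPK2 and ENSSSCG00000009240. HF saline replicate 2 lay below its group mean for all 5 genes, by -0.11 (ZBP1) to -0.60 (CLSTN3). The median deviation of the 43 interferon-stimulated genes was 0.44 in HF saline replicate 3, -0.36 in replicate 2, 0.11 in replicate 4 and -0.09 in replicate 1. In chow control, replicate 1 was above its group mean by 0.84 for ZBP1, 0.65 for CMPK2 and 0.44 for ENSSSCG00000009240, and the list median was 0.26. Replicate 1 is also the smallest library, and the part of depth in this was not tested. Chow control replicate 4 was below the mean for these 3 genes, by -0.40, -0.56 and -0.45, with a list median of -0.27.

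**Figure D3:**
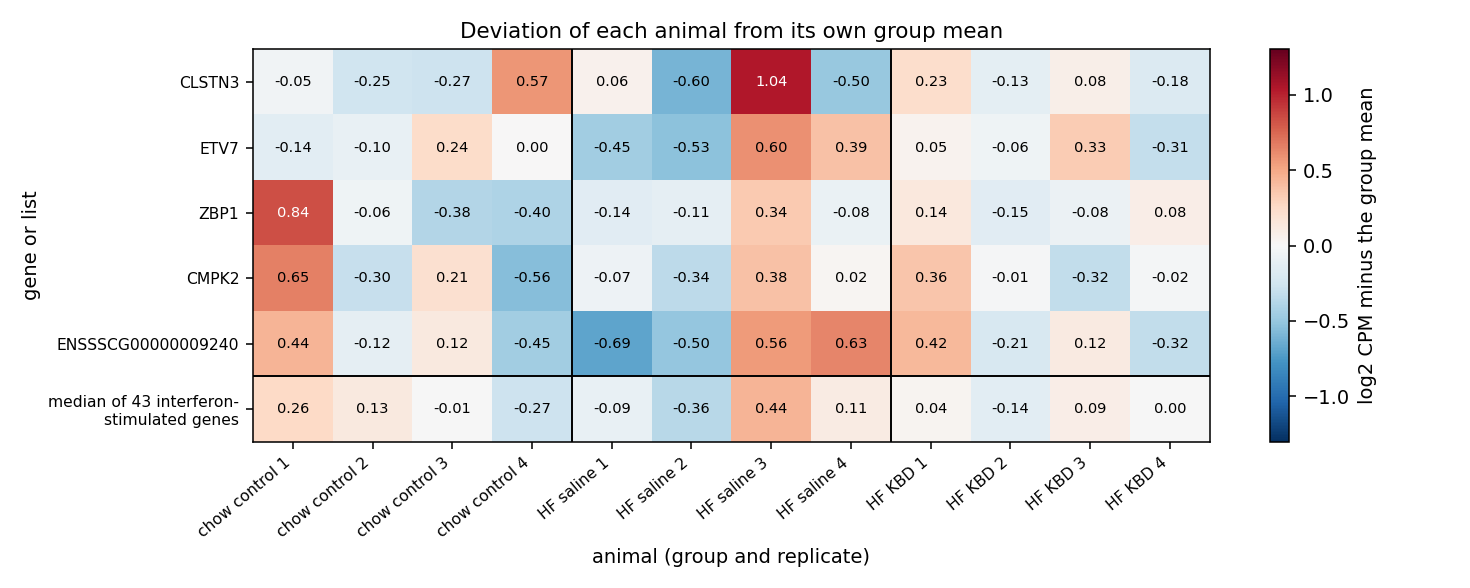
Log2 CPM of each animal minus the mean of its own group, for the 5 genes and for the median of 43 interferon-stimulated genes; columns are the 12 animals and red is above the group mean. HF saline replicate 3 is above its group mean in every line, from 0.34 to 1.04.

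Co-variation between animals of the same group was then compared for the 10 pairs of the 5 genes, using these deviations over 12 animals. Pearson's r was above 0 for all 10 pairs, with a median of 0.366. The 4 highest values were all between ETV7, ZBP1, CMPK2 and ENSSSCG00000009240. CMPK2 and ENSSSCG00000009240 had r = 0.672 (exact permutation within groups, two-sided p = 0.0135, adjusted 0.135 over 10 pairs) and Spearman's rho = 0.755 (exact p = 0.0130, adjusted 0.130). ZBP1 and CMPK2 had r = 0.743 (exact p = 0.0326, adjusted 0.163) and rho = 0.580 (exact p = 0.116, adjusted 0.290). ETV7 and ENSSSCG00000009240 had r = 0.773 (exact p = 0.0871, adjusted 0.218) and rho = 0.755 (exact p = 0.110, adjusted 0.290). ZBP1 and ENSSSCG00000009240 had r = 0.522 (exact p = 0.05997, adjusted 0.199894) and rho = 0.538 (exact p = 0.0664, adjusted 0.290).

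No pair passed after adjustment (0 of 10), and 2 of 10 had an unadjusted exact permutation p under 0.05. Without the 2 animals farthest from the median of the first gene, r was 0.587 for CMPK2 and ENSSSCG00000009240, 0.380 for ZBP1 and CMPK2, 0.682 for ETV7 and ENSSSCG00000009240 and 0.274 for ZBP1 and ENSSSCG00000009240. CLSTN3 had r = 0.467 with ETV7 and between 0.181 and 0.199 with the remaining 3 (exact permutation p between 0.360 and 0.775, adjusted between 0.610 and 0.856). Its rho was between 0.0909 and 0.343 (exact p between 0.382 and 0.793, adjusted between 0.637 and 0.808). Its r without the 2 farthest animals was between 0.0982 and 0.367. The chow control deviations of CLSTN3 rest on 1, 1, 1 and 3 counts, and the part of counting error in its r was not tested. ETV7 had r = 0.266 with CMPK2 (exact p = 0.366, adjusted 0.610; rho = 0.357, exact p = 0.292, adjusted 0.585) and 0.0438 with ZBP1 (exact p = 0.856, adjusted 0.856; rho = 0.0839, exact p = 0.808, adjusted 0.808), and -0.06 and -0.25 without the farthest animals. Without HF saline replicate 3, 5 of 10 values of r were above 0 and the median was 0.00408, so the sign of the other 5 depended on single animals. The 4 values for CLSTN3 were above 0 when chow control replicate 4 was left out as well, and that of ETV7 with ZBP1 was also under 0 without HF saline replicate 1 or 2. The 4 highest values stayed between 0.438 and 0.713.

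**Figure D4:**
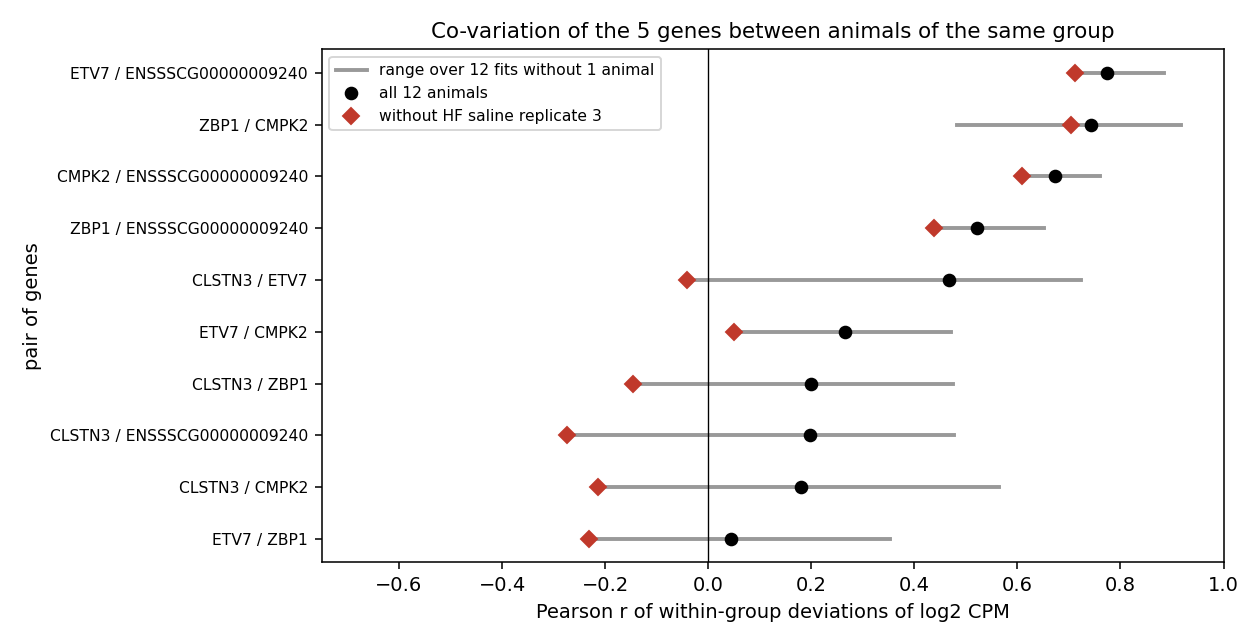
Pearson r of within-group deviations for the 10 pairs of genes over 12 animals (black), its range when each animal is left out in turn (grey line) and its value without HF saline replicate 3 (red diamond). The pairs of CLSTN3 and the pair of ETV7 and ZBP1 turn negative without that animal, and the 4 pairs at the top stay between 0.438 and 0.713.

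The same deviations were set against those of the 43 interferon-stimulated genes, as a description over 12 animals that share their libraries. The median r was 0.563 for ENSSSCG00000009240, 0.539 for CMPK2, 0.506 for ZBP1, 0.399 for ETV7 and 0.233 for CLSTN3. Over all tested genes the median was between 0.00235 and 0.0106. Without HF saline replicate 3 the medians were 0.463, 0.432, 0.442, 0.228 and -0.21 in that order, so that of CLSTN3 changed sign. The 100 genes closest to ENSSSCG00000009240 held 9 of the 43, where the list makes up 0.319% of tested genes. The 100 closest to CMPK2 held 5, and those closest to CLSTN3, ETV7 and ZBP1 held 2 each.

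The gene nearest to ENSSSCG00000009240 was IFI6, a small interferon-stimulated membrane protein, both by within-group deviations (r = 0.933) and by log2 CPM over 12 animals (r = 0.969). IFI6 had 41.7, 23.6, 24.3 and 12.5 CPM in chow control replicates 1 to 4, 57.0, 64.6, 176.9 and 124.8 CPM in HF saline and 85.6, 45.9, 65.9 and 51.4 CPM in HF KBD. In both genes HF saline replicates 3 and 4 were the highest animals, followed by HF KBD replicate 1. By log2 CPM over 12 animals, which holds the group differences used for the choice, the nearest genes were HERC5 (r = 0.924) and UBA7 (0.907) for CLSTN3. They were ENSSSCG00000048918 (0.950) and UBA7 (0.942) for ETV7, IFIT3 (0.933) and ENSSSCG00000017754 (0.924) for ZBP1, ENSSSCG00000017754 (0.936) and IFI6 (0.936) for CMPK2, and IFI6 and ENSSSCG00000017754 (0.963) for ENSSSCG00000009240. Of these 10 places, 6 were held by genes of the interferon-stimulated list.

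By within-group deviations, 1 of 10 places was held by that list. The nearest genes were ENSSSCG00000049696 (r = 0.895) and CISD2 (0.882) for CLSTN3, and ITGAL (0.889) and LACTB (0.887) for ETV7. They were TIMM22 (0.932) and ABR (0.922) for ZBP1, and SNX11 (0.945) and EPHA4 (0.915) for CMPK2. The second gene for ENSSSCG00000009240 was ENSSSCG00000032436 (0.916). ITGAL, an integrin chain of white blood cells, had means of 7.02, 13.5 and 8.77 CPM in chow control, HF saline and HF KBD. Each is the highest value out of all other tested genes and is given as a description.

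Markers of other cell types were compared beside these results, and their part in them was not tested. The lymphocyte marker CD3E, a chain of the T cell receptor complex, had 0.766, 0.254, 0.0814 and 0.793 CPM in chow control replicates 1 to 4, 1.34, 1.08, 1.94 and 2.02 CPM in HF saline and 0.925, 0.104, 0.274 and 0.549 CPM in HF KBD. All HF saline animals thus lay above all others (log2 fold change against chow control 1.81 ± 0.603 SE, edgeR adjusted p = 0.240). Other T cell genes, named after their values were seen, met the same fold and intermediate rule as the 5 genes. They were picked among the genes that met it, 0.668% of all tested genes, so that choice fixed their pattern. T cell genes that did not meet it were not listed. Means in chow control, HF saline and HF KBD were 1.28, 4.18 and 1.59 CPM for CD2, 0.778, 2.27 and 1.43 CPM for CD8A and 0.820, 2.09 and 1.10 CPM for LCK. The summed level of the 4 fibroblast markers DCN, LUM, PDGFRA and COL1A1 was lower in every HF saline animal (478 to 505 CPM) than in any chow control (512 to 754 CPM) or HF KBD animal (533 to 779.96 CPM). The same held for the summed level of the 3 smooth muscle and pericyte markers ACTA2, MYH11 and RGS5. It was 168 to 205 CPM in HF saline, 209 to 305 CPM in chow control and 224 to 342 CPM in HF KBD. Most single genes did not separate in this way. All HF saline animals lay below all chow control animals for 1 of the 4 fibroblast and 1 of the 3 smooth muscle and pericyte genes. They lay below all HF KBD animals for 0 of the 4 and 1 of the 3. Shares of all tested genes for these counts are not reported here. Of these 7 genes, 0 passed the test in any comparison (edgeR). At an unadjusted p under 0.05, 5 were lower in HF saline than in chow control, where 6.1% of all tested genes were lower. PDGFRA went the other way, with means of 29.4 CPM in chow control and 32.1 CPM in HF saline. The summed level of the 3 macrophage markers CD68, CD163 and CSF1R overlapped between groups, from 103 to 141.8 CPM in chow control, 85.99 to 168 CPM in HF saline and 69.98 to 106 CPM in HF KBD. Of the 4 adipocyte markers LEP was at 0 counts in every animal and ADIPOQ in 9 of 12, while FABP4, which endothelial cells also express, carried nearly all of the sum. The sum ran from 41.9 to 78.6 CPM in chow control, 87.1 to 131 CPM in HF saline and 86.3 to 145 CPM in HF KBD.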

How the data were processed

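RNA was poly(A)-selected from total RNA, with spike-in RNA added, per the labels' protocols. The authors deposited expected counts per gene for 12 animals; the submitters' processing notes name STAR 2.7.10a, RSEM 1.3.1 and Sscrofa11.1. Annotation release and strandedness are not given in the sources used here, so overlapping genes cannot be told apart. Of the gene values, 4.54% were not whole; all were rounded. The vector row was kept out of the tests. Symbols matched 15623 of 35670 identifiers. Positions are those of RefSeq genes of the same symbol on Sscrofa11.1.

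Genes passing edgeR's filterByExpr (minimum count 10, minimum total 15), 13476 in all, were fitted with edgeR 4.0.16 in R 4.3.3 (quasi-likelihood F-test, TMM, 1 mean per group, Benjamini-Hochberg adjustment over all tested genes). Each standard error is the log2 fold change over the root of its F statistic. Deviations are log2 CPM (prior count 2) minus the group mean; exact permutation within groups used 13824 arrangements. The functions were tested on simulated data. No 2 libraries agreed within sampling noise (chi-square per degree of freedom at least 8.92 over 66 pairs). The labels name 1 animal per library.

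Besides the 5 genes, those named were the 2 nearest to each by either correlation and the highest and lowest 2 of each list fixed with the design. PLCD4 and the genes named from the interferon and partner lists were chosen after those lists were added. The 5 genes and the lists were chosen with earlier results of these data known. Alternatives were DESeq2 1.42.0, other size factors, filters, models and prior counts, and leaving out each animal. Results for some genes that these rules name are not reported here.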

Additional observations from a re-analysis of the deposited data

Results flagged for a closer look

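For ZBP1 in HF saline, replicate 3 (25.6 CPM) stood apart from the other 3 animals, the nearest of which had 19.1 CPM. The gap was 0.893 of the group's range, above the 5% critical value of 0.829 for 4 animals. This was 1 of 27 groups examined (the 5 genes and 4 summed lists in 3 groups each), and chance passes about 1 group in 20. The summed interferon-stimulated list was highest in the same animal, at 2250 CPM.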

How the results depend on the processing

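The log2 fold changes of the 5 genes kept their direction under all 16 alternatives in each of the 3 comparisons. In HF saline vs chow control they ranged from 1.20 to 1.60 for CMPK2 and from 3.35 to 4.43 for CLSTN3. The 5 genes called there became 0 when only those 2 groups were modelled, with edgeR adjusted p between 0.0531 and 0.128, and lay between 0 and 5 over the models without 1 animal. In HF KBD vs chow control the 0 became 4 with the DESeq2 Wald test and 2 without a filter on low counts, and ranged from 0 to 1 with an animal left out (ZBP1 without chow control replicate 1, CLSTN3 without HF saline replicate 3). In HF KBD vs HF saline 0 of the 5 were called under every alternative run. Of the 43 interferon-stimulated genes, the 7 that rose in HF saline became 22 with DESeq2 and 2 when only 2 groups were modelled, and ranged from 2 to 10 with an animal left out. The 1 that rose in HF KBD became 5 with DESeq2 and ranged from 0 to 2. These alternatives for the list were chosen after seeing the data, and the causes were not tested. Over all genes, the 35 called in HF saline vs chow control became 262 with DESeq2, 52 without the filter and 6 with 2 groups, and the 7 of HF KBD vs chow control became 199, 35 and 5. With an animal left out these counts ranged from 3 to 72 and from 0 to 13.

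The count of pairs of genes with an adjusted exact permutation p under 0.05 ranged from 0 to 1 with an animal left out: CMPK2 and ENSSSCG00000009240 had r = 0.741 without HF KBD replicate 3. With an animal left out, r ranged from -0.0412 to 0.724 for CLSTN3 with ETV7, from -0.146 to 0.475 with ZBP1, from -0.213 to 0.564 with CMPK2 and from -0.275 to 0.477 with ENSSSCG00000009240, each lowest without HF saline replicate 3. For ETV7 with ZBP1 it ranged from -0.231 (without HF saline replicate 3) to 0.352, and was -0.0289 and -0.0228 without HF saline replicates 1 and 2. No paired analysis was run, because the groups hold different animals and the labels pair none. The replicate numbers used here only name animals. CLSTN3 rests on 6 counts in all chow control animals, so depth limits its fold.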

Other observations

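Lists of other heart genes, fixed with the design, were described in HF saline vs chow control, where 0.26% of all tested genes were called; 0 of their 41 tested genes were called (edgeR, adjusted p under 0.05), and 10 had an unadjusted p under 0.05. Of these 3 were higher and 7 lower, where 5.71% of all tested genes were higher and 6.1% lower at that threshold. Of 11 tested matrix genes, 5 were lower and 0 higher at an unadjusted p under 0.05, with a median log2 fold change of -0.51. Among them POSTN, a matrix protein of activated fibroblasts, had means of 34.9, 12.7 and 15.3 CPM in chow control, HF saline and HF KBD. CCN2, a growth factor linked to scarring, had 61.7, 17.8 and 30.5 CPM in the same order. Its chow control mean (SD 64.6 CPM) was carried by replicate 1, with 1240 counts against 267, 448 and 299 in replicates 2 to 4. The highest matrix genes were LOXL2 and TIMP1, with log2 fold changes of 0.12 and 0.04. The natriuretic peptide genes NPPA and NPPB, markers of cardiac wall stress, had log2 fold changes of -0.89 and -1.50, with standard errors of 0.477 and 0.840, and XIRP2 and CSRP3 had 0.03 and -0.01.

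Among calcium handling genes ATP2A2, the calcium pump of the sarcoplasmic reticulum, had 3348, 3923 and 4162 CPM, and RYR2, PLN and SLC8A1 had log2 fold changes of 0.16, 0.03 and -0.10. Of 7 fatty acid genes, 7 had higher fitted levels, where 49.5% of all tested genes did. Log2 fold changes ran from CPT1B (0.01) and HADHA (0.16) to UCP3 (1.08 ± 0.551 SE) and PDK4 (1.10 ± 0.823 SE). UCP3 had 0, 5, 17 and 16 counts in chow control replicates 1 to 4. PDK4 had 289, 30846, 17911 and 9540 counts in the same animals. Of 6 glucose genes, PFKM and PDK2 were highest (0.09 and -0.02) and SLC2A1 and HK2 lowest (-0.52 and -0.53). The inflammation genes had log2 fold changes of -0.28 ± 0.252 (SE) for LCN2, -0.52 ± 0.9998 (SE) for CHI3L1, -1.47 ± 0.800 (SE) for CCL2 and -1.74 ± 1.39 (SE) for IL6. Of these 4, 0 had an unadjusted p under 0.05 (edgeR). Means in chow control and HF saline were 0.784 and 0.236 CPM for IL6 and 0.649 and 0.478 CPM for CHI3L1.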
